A study of Mus musculus with 6 samples.

Results

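Laminins, integrins and the genes of the basement membrane were examined in breast tumors of mice that did or did not overproduce the cytokine TSLP in skin. A fixed list of 34 genes was used, out of 18460 genes listed in the 6 tumors, and a gene was a member because it encodes a laminin chain, another structural protein of the basement membrane, or an integrin subunit, though not every such gene is on the list. The list held 10 laminin chain genes (*Lama1* to *Lama5*, *Lamb1* to *Lamb3*, *Lamc1* and *Lamc3*), 12 integrin alpha subunits, 7 integrin beta subunits, and *Nid1*, *Nid2*, *Hspg2*, *Agrn* and *Tinagl1*. All 34 members were listed in at least 1 tumor.

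The libraries were made from total RNA of whole breast tumors of Balb/c mice. The 3 control tumors came from PyMTtg;Rag1KO mice and the 3 test tumors from K14-TSLPtg;PyMTtg;Rag1KO mice, so the groups differed by the TSLP transgene. Both groups carried the polyoma middle T oncogene, which the MMTV promoter drives mainly in mammary epithelium, both lacked *Rag1* and with it their own B and T cells, and both were given CD4+ T cells at 4 weeks of age. Tumors were taken at endpoint, in weeks 18 to 20. The K14 promoter places TSLP in keratinocytes and other cells of basal epithelium, so tumor and skin cannot be told apart as the site where the transgene acted. Per the study, each tumor came from a different mouse. The comparison asked how the transcriptome of tumors formed under TSLP-stimulated CD4+ T cells differed from that of control tumors.

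A basement membrane is a thin sheet of extracellular matrix on which epithelial cells rest and which wraps vessels, muscle and nerve. Laminins are secreted as trimers of an alpha, a beta and a gamma chain that join into a network, nidogens and heparan sulfate proteoglycans tie that network to type IV collagen, and integrins, which are dimers of an alpha and a beta subunit, hold cells to it. In the mammary gland the basement membrane underlies the myoepithelial layer, and contact with laminin is part of what keeps luminal cells polarized and able to make milk proteins. The receptor made of *Itga6* and *Itgb4* products forms hemidesmosomes, anchors that connect laminin to keratin filaments.

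Promoter sequence is shown for *Tinagl1*, the member with the lowest p-value, and for *Lamb3*, the single member whose test tumors all lay above the control tumors. Both were read 5′ to 3′ on the strand of the gene from RefSeq sequence of build GRCm38.p6, and each stretch was ended before an annotated exon. The *Tinagl1* stretch is chr4:130175123-130175372 on the minus strand, 250 bases with a GC content of 60.8%, and the *Lamb3* stretch is chr1:193301744-193301992 on the plus strand, 249 bases with a GC content of 58.6%, inside the annotated span of the gene and ahead of a downstream transcript start. Coordinates of genes are those of the gene annotation that was matched by NCBI identifier, on the same build. The median GC content over all promoter windows was 52.4%. Capitals mark a match to TGANTCA, a loose form of the AP-1 motif in which N is any base. The marked stretch has A at that place.
Tinagl1: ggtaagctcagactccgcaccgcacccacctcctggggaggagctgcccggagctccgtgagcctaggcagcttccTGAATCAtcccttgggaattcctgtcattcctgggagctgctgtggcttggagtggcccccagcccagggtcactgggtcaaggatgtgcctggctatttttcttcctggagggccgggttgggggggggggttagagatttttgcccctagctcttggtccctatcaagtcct
Lamb3: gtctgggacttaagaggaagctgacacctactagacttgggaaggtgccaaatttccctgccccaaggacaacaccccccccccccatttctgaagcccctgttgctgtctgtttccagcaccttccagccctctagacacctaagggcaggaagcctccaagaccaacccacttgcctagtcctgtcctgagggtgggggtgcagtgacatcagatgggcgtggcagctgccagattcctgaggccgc
The match in *Tinagl1* began 174 bases before the transcript start. Windows of 250 bases before the start were searched on both strands for TGANTCA, the TATA box TATAAA and the GC box GGGCGG, motifs that do not overlap one another. At least 1 window was found for 24 of the 34 members, 29 windows in all. TGANTCA was in 1 of these 29 windows, or 3.45%, against 6.75% of all 32851 windows. GGGCGG was in 13 member windows, or 44.8%, against 32.7% of all windows, and TATAAA was in 0, against 12.4%. The *Lamb3* stretch matched none of the 3 motifs, and the *Tinagl1* stretch shown matched TGANTCA alone. Another *Tinagl1* window, ahead of a different transcript start, had GGGCGG on either strand at 82, 53, 35 and 16 bases before that start. That window is not shown because it ran into an annotated exon. A match is a run of letters and not a measured binding site.

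Total expected counts lay between 8373390 and 9449565 per tumor. *Tslp* itself was counted at 2, 2 and 3 reads in control replicates 1, 2 and 3 and at 12, 7 and 2 reads in the test tumors in the same order, so 1 test tumor held no more *Tslp* reads than the controls. *Rag1* had between 4 and 27 reads in each tumor of both groups, and whether these reads come from the deleted part is not given. Epithelial content was checked with luminal genes such as *Krt8*, *Krt18* and *Epcam*, which were detected in every tumor. Their detection shows epithelium and is not a test of mammary identity. Control replicate 2 stood apart from the other control tumors: over all tested genes its log2 counts scaled to library size (CPM) correlated with those of the 3 test tumors at 0.912 to 0.925, and with control replicates 1 and 3 at 0.862 and 0.897, whereas control replicates 1 and 3 correlated at 0.942. These correlations are across genes, which are not independent replicates. Values of members without this tumor are given beside those with it.

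Of the 34 members, 33 passed the filter on low counts and were tested, and *Lamc3* was not. No member passed an adjusted p of 0.05 by the quasi-likelihood test of edgeR, adjusted by the Benjamini-Hochberg method over 13706 genes, nor did any other gene (0%). The lowest adjusted p was 0.39. By DESeq2, 2 of 34 members passed, *Tinagl1* and *Nid2*, beside 343 of 18436 genes (1.86%). With control replicate 2 left out, edgeR called 2 of 34, *Tinagl1* and *Itga1*, beside 182 of 14166 genes (1.28%). At an unadjusted p under 0.05, 9 of the 33 tested members were called, or 27.3%, beside 8.41% of all genes tested. Of these, 7 were lower in the test tumors, or 21.2% beside 5.26% of all genes, and 2 were higher, or 6.06% beside 3.15%.

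The fitted difference between test and control tumors was below 0 for 26 of the 33, or 78.8%, and for 48.5% of all genes tested, and above 0 for 7, or 21.2% beside 51.5% of all genes. In all, 9 members, or 27.3%, were at a log2 fold change of -1 or lower, where 7.27% of all genes were. The median log2 fold change was -0.47 over the tested members and 0.02 over all genes. The groups did not overlap for 6 members, or 18.2%, and for 12% of all genes. Among these, 5 members had every test tumor below every control tumor, or 15.2% beside 5.86% of all genes, and 1 had every test tumor above, or 3.03% beside 6.12%. In bulk tumor RNA, fewer cells of a type and less RNA per cell cannot be told apart.

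**Figure D1:**
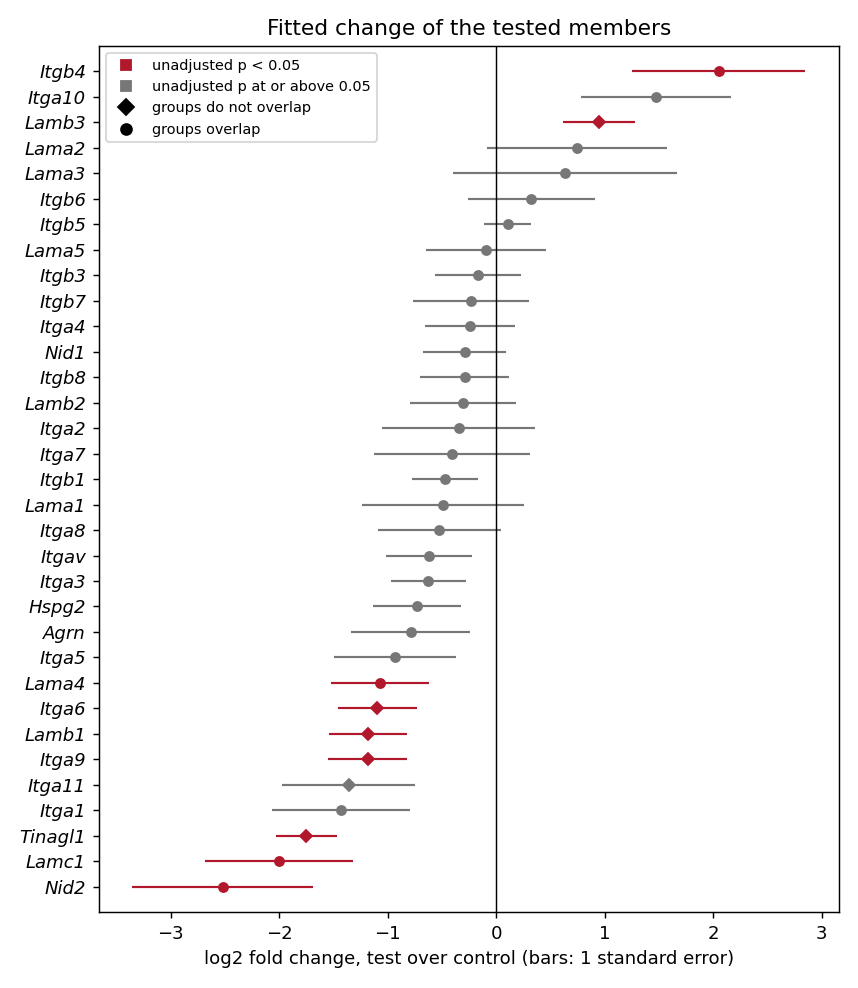
Fitted log2 fold change of test over control tumors from edgeR (horizontal axis) for each of the 33 tested members. Bars are 1 standard error, derived from the fold change and the F statistic of the test. Of the members, 26 lie below 0 and 7 above, *Nid2* is lowest at -2.52 and *Itgb4* highest at 2.05.

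Control replicate 2 was the lowest of the 3 control tumors for 25 of the 33 tested members, or 75.8%, and for 41.1% of all genes. Control replicates 1 and 3 both lay above every test tumor for 16 members, or 48.5% beside 18.8% of all genes, and for 11 of these, or 33.3% of the members beside 13% of all genes, control replicate 2 did not. Both lay below every test tumor for 3 members, or 9.09% beside 16.2%. Control replicate 2 thus lay within or below the test range for members that were high in the other control tumors, among them *Lamc1* and *Nid2*. With this tumor left out, 18 of 34 members (52.9%) had an unadjusted p under 0.05, and the share of all genes also went up, to 14.3%. Without control replicate 1 there were 4 of 33 members (12.1%) beside 4.65% of all genes. Without control replicate 2 the log2 fold change was -2.46 for *Lamc1*, -3.02 for *Nid2*, -1.48 for *Lamb1*, -1.44 for *Lama4*, -1.38 for *Itga9*, -1.18 for *Itga6* and -0.68 for *Itgb1*, with adjusted p-values from 0.055 to 0.34 in edgeR. It was -1.16 for *Agrn*, -1.05 for *Hspg2*, -1.33 for *Itga5*, -0.95 for *Itgav*, -0.80 for *Itga3* and -0.39 for *Itgb3*. Of the members above 0 in the main fit, *Itgb4* was then at 2.59, *Itga10* at 1.975 and *Lamb3* at 0.96. The rest of those above 0 were at 0.67 (*Lama2*), 0.40 (*Lama3*), 0.29 (*Itgb6*) and 0.038 (*Itgb5*).

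**Figure D2:**
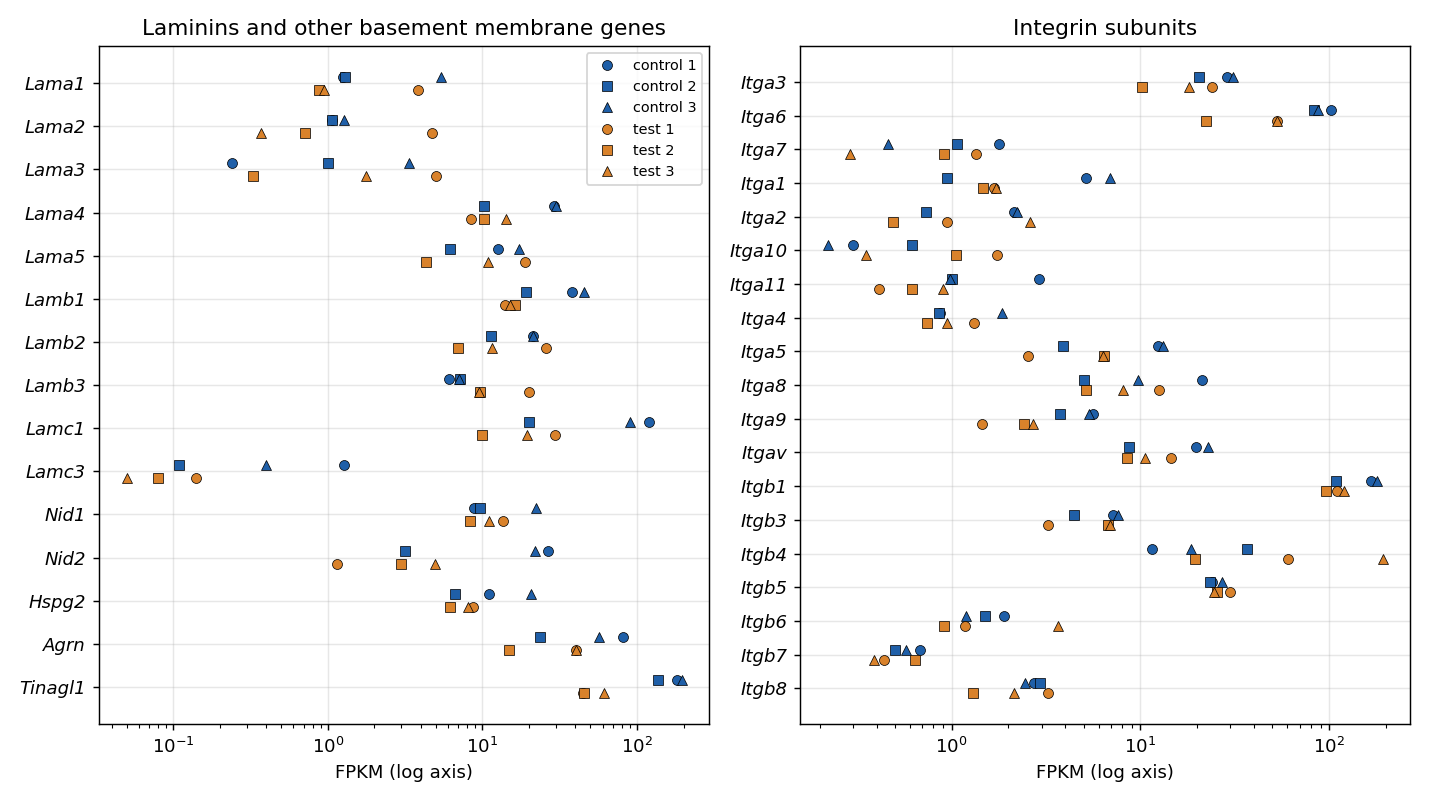
Expression per transcript length of each member in each tumor, as fragments scaled to transcript length and library size (FPKM, log axis), with laminins and other basement membrane genes on the left and integrin subunits on the right. Circles, squares and triangles are replicates 1, 2 and 3. For *Tinagl1* the 3 control tumors lie to the right of the 3 test tumors, and for *Lamc1* the control square lies among the test points.

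Among the laminin alpha chains, which set the tissue and the receptor that a laminin serves, 3 had a lower and 2 a higher fitted mean in the test tumors, and 1, *Lama4*, had an unadjusted p under 0.05. *Lama4*, the alpha chain of vessel walls and other mesenchymal basement membranes, was the highest of the 5 per length, with a mean of 17.0 FPKM over the 6 tumors. It was measured at 189.6, 60.0 and 176 CPM in control replicates 1, 2 and 3 and at 49.7, 65.8 and 87.1 CPM in the test tumors. Control replicates 1 and 3 were well above the rest and control replicate 2 fell among the test tumors. The means were 142 ± 71.3 and 67.5 ± 18.8 CPM (SD, n = 3 each), and the log2 fold change was -1.07 ± 0.45 (SE) with an adjusted p of 0.58 in edgeR's quasi-likelihood test. The 6 endothelial markers summed to 138, 98.9 and 135 CPM in control replicates 1, 2 and 3. In the test tumors they summed to 109, 126 and 146 CPM. The 5 pericyte markers summed to 196, 134 and 223 CPM in the control and 198, 107 and 199 CPM in the test tumors. In fitted change, 4 endothelial markers were above and 2 below 0, and 1 pericyte marker was above and 4 below. In each list 0 genes had an unadjusted p under 0.05. The part of vessel cells in the *Lama4* value was not tested.

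*Lama5*, the main alpha chain of adult epithelial and vascular basement membranes, had 11.7 FPKM on average and a log2 fold change of -0.09, with 52.5 CPM in test replicate 2 and 212 CPM in test replicate 1 as the lowest and highest of the 6 tumors. The other 3 alpha chains were low, at means of 1.54 to 2.26 FPKM. *Lama1*, best known from embryonic basement membranes, ranged from 8.91 to 50.3 CPM. *Lama2*, the muscle and nerve chain, had 45.3 CPM in test replicate 1 and between 3.71 and 12.3 CPM in the other 5 tumors, and the summed CPM of the 6 skeletal muscle markers was also highest in test replicate 1, at 904 against 5.11 to 179 in the other tumors. The part of muscle tissue in the *Lama2* value was not tested. *Lama3*, an alpha chain of the epithelial laminin of hemidesmosomes, spanned 2.66 to 34.1 CPM in the control tumors and 3.66 to 50.5 CPM in the test tumors.

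Of the beta chains, *Lamb1* was lower and *Lamb3* higher in all 3 test tumors than in any control tumor. *Lamb1*, the widespread beta chain (NCBI gene 16777, chr12:31265146-31329644), was measured at 239, 108 and 259 CPM in the control tumors and 79.0, 99.4 and 88.6 CPM in the test tumors. All 3 test tumors were lower than all 3 control tumors, although control replicate 2 was close to them. The means were 202 ± 81.9 and 89.0 ± 10.2 CPM (SD, n = 3 each), 2.27-fold higher in the control tumors, with a log2 fold change of -1.18 ± 0.36 (SE) and an adjusted p of 0.45 in edgeR's quasi-likelihood test.

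*Lamb3*, the beta chain found in the epithelial laminin of hemidesmosomes (chr1:193294353-193343878), was measured at 26.6, 28.2 and 28.1 CPM in the control tumors and at 79.5, 41.4 and 39.1 CPM in the test tumors. The control tumors were nearly equal, every test tumor lay above them, and test replicate 1 was the highest. The means were 27.7 ± 0.90 and 53.3 ± 22.7 CPM (SD, n = 3 each), with a log2 fold change of 0.95 ± 0.33 (SE) and an adjusted p of 0.49 in edgeR's quasi-likelihood test, and the log2 fold change was between 0.54, without test replicate 1, and 1.14 when 1 tumor was left out. *Lamb2*, the beta chain of the neuromuscular synapse and the kidney filter, ranged from 41.8 to 142 CPM with a log2 fold change of -0.31.

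Expressed as a share of the summed FPKM of the 3 beta chains, *Lamb1* made up 58.3%, 51.0% and 61.6% in control replicates 1, 2 and 3 and 23.4%, 49.3% and 41.7% in the test tumors. *Lamb3* made up 9.27%, 19.0% and 9.57% in the control tumors and 33.6%, 29.4% and 26.2% in the test tumors. Neither share overlapped between the groups. The difference in means was -18.9 percentage points for *Lamb1* and 17.1 for *Lamb3*, each with p = 0.1 in a two-sided exact permutation test, the smallest p that 3 against 3 tumors can give, and 0.4 after Benjamini-Hochberg adjustment over 12 share and ratio comparisons. Without test replicate 1 the difference was -11.5 percentage points for *Lamb1* and 15.2 for *Lamb3*. The *Lamb2* share was 30.4% and 32.1% on average. The shares of the beta chains add up to 100%, so they are not independent of each other.

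**Figure D3:**
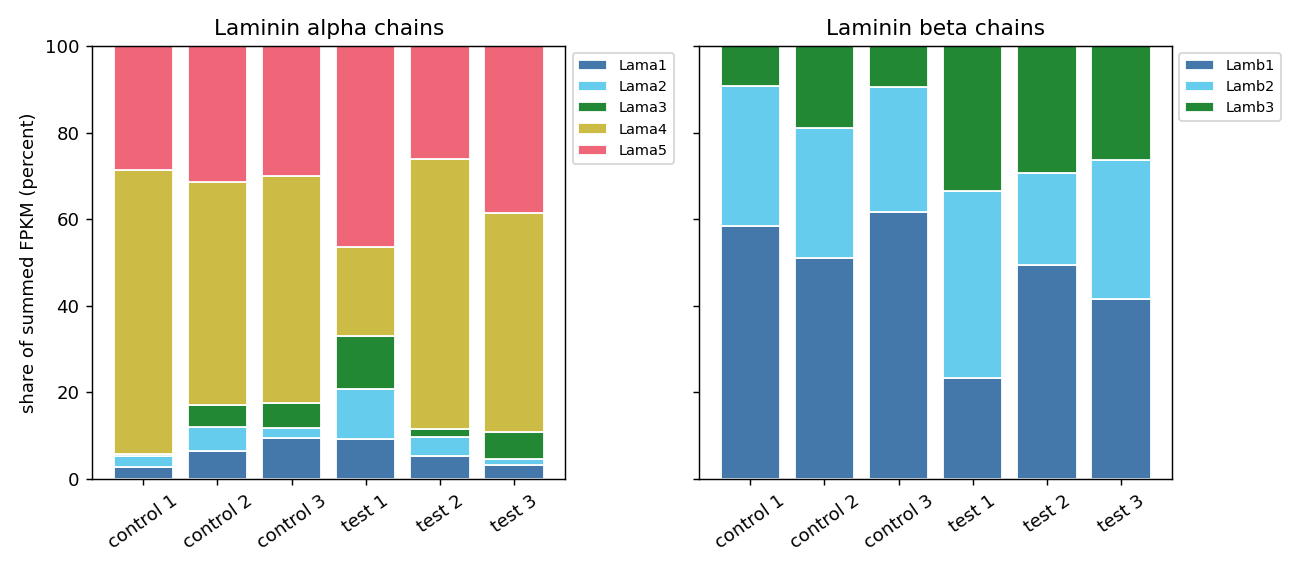
Share of each chain in the summed FPKM of the laminin alpha chains (left) and beta chains (right), in percent, for each tumor. The *Lamb3* block is 26.2% to 33.6% in the test tumors and 9.27% to 19.0% in the control tumors, and among the alpha chains *Lama4* and *Lama5* take most of the sum in every tumor.

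Among the alpha chains, the *Lama4* share was 56.5 ± 7.94% in the control and 44.4 ± 21.5% in the test tumors, and the *Lama5* share 30.03 ± 1.45% and 37.1 ± 10.2% (SD, n = 3 each). The groups overlapped for both, with p = 0.4 in the exact permutation test for each. The differences in mean share, -12.1 percentage points for *Lama4* and 7.04 for *Lama5*, were -0.21 and 2.38 without test replicate 1. For *Lama1*, *Lama2* and *Lama3* the mean shares were between 3.35% and 6.83% in both groups.

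The gamma chain *Lamc1*, which is part of nearly all laminins (chr1:153218922-153332786), was the most abundant laminin chain among the members per length, at a mean of 48.1 FPKM. It was measured at 988, 149 and 672 CPM in the control tumors and 220.2, 80.9 and 151 CPM in the test tumors. Control replicates 1 and 3 exceeded every other tumor, and control replicate 2 lay between test replicates 2 and 3. The means were 603 ± 424 and 151 ± 69.7 CPM (SD, n = 3 each), with a log2 fold change of -2.0 ± 0.68 (SE) and an adjusted p of 0.48 in edgeR's quasi-likelihood test. *Lamc3*, a gamma chain of nerve and a few other tissues, was counted at 71, 6 and 22 reads in the control tumors and 7, 4 and 3 reads in the test tumors, and was too low to be tested. Per length, *Lamc1* and *Lamc3* together gave 120.9, 20.1 and 90.4 FPKM in the control tumors, while the 5 alpha chains gave 44.2, 19.8 and 57.0 FPKM and the 3 beta chains 65.6, 37.7 and 74.2 FPKM. In the test tumors the sum of *Lamc1* and *Lamc3* was 29.7, 10.1 and 19.5 FPKM, the alpha sum 41.0, 16.5 and 28.2 FPKM and the beta sum 59.9, 32.8 and 36.2 FPKM. The sum of *Lamc1* and *Lamc3* was thus above both other sums in control replicates 1 and 3 and below the beta sum in the other 4 tumors.

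The nidogens, proteoglycans and *Tinagl1*, which link or fill the laminin network, were all below 0 in fitted change, with 2 of the 5 at an unadjusted p under 0.05. *Tinagl1*, a secreted basement membrane protein related to the cathepsins but without protease activity (NCBI gene 94242, chr4:130165600-130175122), had the lowest p-value of all members. It was measured at 378, 257 and 368 CPM in the control tumors and at 84.1, 93.3 and 120.4 CPM in the test tumors. Every test tumor was lower than every control tumor by a wide margin, and control replicate 2 was here nearer to the other controls than to the test tumors. The means were 334 ± 67.0 and 99.3 ± 18.9 CPM (SD, n = 3 each), 3.37-fold higher in the control tumors. The log2 fold change was -1.75 ± 0.28 (SE), with an adjusted p of 0.39 in edgeR's quasi-likelihood test and of 3.02e-05 in DESeq2. Leaving out any 1 tumor gave between -1.91 and -1.64, and an adjusted p of 0.039 in edgeR without control replicate 2.

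*Nid2*, one of the nidogens that bridge laminin to type IV collagen (chr14:19751257-19811787), was measured at 142, 15.0 and 106 CPM in the control tumors and 5.54, 15.6 and 24.5 CPM in the test tumors. Control replicates 1 and 3 stood several-fold above the remaining 4 tumors. The log2 fold change was -2.52 ± 0.83 (SE), with an adjusted p of 0.48 in edgeR's quasi-likelihood test and of 0.031 in DESeq2. *Nid1*, its paralog, was measured at 57.9, 56.8 and 131 CPM in the control tumors and 80.0, 53.7 and 67.4 CPM in the test tumors, with only control replicate 3 standing above the rest, and a log2 fold change of -0.29 ± 0.38 (SE). The ratio of *Nid1* to *Nid2* FPKM was 0.33, 3.07 and 1.00 in the control tumors and 11.8, 2.79 and 2.23 in the test tumors, and the groups overlapped (two-sided exact permutation test on log2 ratios, p = 0.3).

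The heparan sulfate proteoglycans were the perlecan gene *Hspg2* and *Agrn*, which encodes agrin. *Hspg2* was measured at 171, 92.0 and 286 CPM in the control tumors and 121, 94.1 and 116 CPM in the test tumors, and its log2 fold change was -0.73 ± 0.41 (SE). *Agrn* was measured at 649.8, 169 and 409 CPM in the control tumors and 289, 117 and 303 CPM in the test tumors, and its log2 fold change was -0.79 ± 0.55 (SE). In both genes control replicates 1 and 3 were above every test tumor and control replicate 2 was the lowest control, and neither had an unadjusted p under 0.05. The log2 fold change of *Hspg2* was -0.26 without control replicate 3, and that of *Agrn* was -0.29 without control replicate 1 and -0.46 without test replicate 2.

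The laminin-binding alpha integrins *Itga3*, *Itga6* and *Itga7* all had a fitted change below 0. *Itga6*, which pairs with either *Itgb1* or *Itgb4* (chr2:71786886-71858427), was measured at 462, 341 and 359.8 CPM in the control tumors and 218, 99.6 and 226 CPM in the test tumors. All control tumors were above all test tumors, and test replicate 2 was the lowest. The means were 387 ± 65.1 and 181 ± 70.8 CPM (SD, n = 3 each), 2.14-fold higher in the control tumors, with a log2 fold change of -1.10 ± 0.36 (SE) and an adjusted p of 0.48 in edgeR's quasi-likelihood test. *Itga3*, the receptor subunit for the epithelial laminins, was measured at 150.4, 97.6 and 148 CPM in the control tumors and 114, 52.7 and 89.6 CPM in the test tumors. Control replicate 2 fell inside the test range, and the log2 fold change was -0.63 ± 0.34 (SE). *Itga7*, the laminin receptor subunit of muscle, was at 1.17 to 7.75 CPM, with a log2 fold change of -0.41.

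*Itgb4*, the hemidesmosomal partner of *Itga6* (chr11:115974725-116008412), was one of the 2 members with an unadjusted p under 0.05 that were higher in the test tumors. It was measured at 74.8, 216 and 109 CPM in the control tumors and 356, 125 and 1174 CPM in the test tumors. Test replicate 3 was far above every other tumor, test replicate 2 lay within the control range, and the groups overlapped. The means were 133 ± 73.8 and 551 ± 551 CPM (SD, n = 3 each), with a log2 fold change of 2.05 ± 0.79 (SE) and an adjusted p of 0.55 in edgeR's quasi-likelihood test. Without test replicate 3 the log2 fold change was 0.86.

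The ratio between the subunits of the hemidesmosomal receptor did not overlap between the groups, whereas the *Itgb4* level did. The ratio of *Itgb4* to *Itga6* FPKM was 0.11, 0.44 and 0.21 in control replicates 1, 2 and 3 and 1.14, 0.87 and 3.62 in the test tumors. Every test tumor was above every control tumor, and control replicate 2 was the highest control. The mean log2 ratio was -2.19 ± 0.99 and 0.62 ± 1.09 (SD, n = 3 each), a difference of 2.81. The two-sided exact permutation test gave p = 0.1, the smallest it can give, and 0.4 after adjustment over the 12 comparisons, and leaving out 1 tumor gave differences of 2.19 to 3.31.

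**Figure D4:**
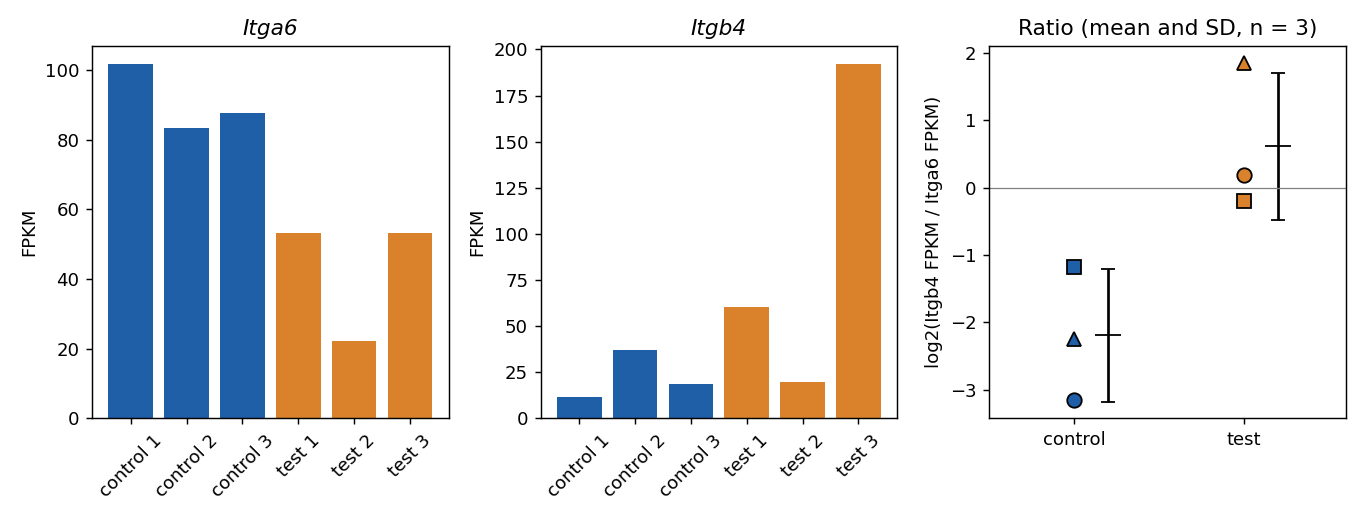
FPKM of *Itga6* (left) and *Itgb4* (middle) in each tumor as bars from 0, and the log2 ratio of *Itgb4* to *Itga6* FPKM (right) as points with the mean and SD of 3 tumors per group. Control tumors have ratios of -3.15 to -1.18 and test tumors of -0.19 to 1.86 on the log2 scale, while test replicate 3 is the highest *Itgb4* bar at 192 FPKM.

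Other integrin ratios overlapped between groups. The log2 ratio of *Itga6* to *Itga3* was 1.78 ± 0.27 in the control and 1.28 ± 0.24 in the test tumors, and that of *Itgb4* to *Itgb1* was -2.90 ± 1.197 and -0.83 ± 1.498 (SD, n = 3 each, two-sided exact permutation test p = 0.2 for each). These ratios use the same tumors and share genes, so they are not independent of one another.

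Of the collagen-binding alpha integrins *Itga1*, *Itga2*, *Itga10* and *Itga11*, 3 were below 0 in fitted change and 0 had an unadjusted p under 0.05. *Itga11*, a receptor subunit of fibroblasts (chr9:62677855-62783979), was measured at 15.4, 4.87 and 4.79 CPM in the control tumors and 1.96, 3.30 and 4.46 CPM in the test tumors. The groups did not overlap, but control replicates 2 and 3 were only just above test replicate 3 and control replicate 1 was the single high tumor. Its log2 fold change was -1.36 ± 0.61 (SE) and was -0.58 without control replicate 1. *Itga1* was measured at 33.6, 5.52 and 40.5 CPM in the control tumors and 9.80, 9.28 and 10.4 CPM in the test tumors, so that control replicate 2 was below all test tumors and the other controls were well above them. Its log2 fold change was -1.43 ± 0.64 (SE), and without control replicate 2 it was -1.91, with an adjusted p of 0.035 in edgeR's quasi-likelihood test. *Itga2*, the epithelial and platelet collagen receptor subunit, had a log2 fold change of -0.35, and *Itga10*, best known from cartilage, had 1.47 ± 0.69 (SE) at 1.07 to 8.53 CPM.

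The 5 remaining alpha subunits, which bind fibronectin, tenascin, vitronectin and other ligands, were all below 0. *Itga9*, a receptor subunit for tenascin C and osteopontin (chr9:118606709-118901003), was measured at 38.0, 21.9 and 32.5 CPM in the control tumors and 8.65, 14.2 and 17.7 CPM in the test tumors. All test tumors were lower than all control tumors. The means were 30.8 ± 8.19 and 13.5 ± 4.57 CPM (SD, n = 3 each), 2.28-fold higher in the control tumors, with a log2 fold change of -1.19 ± 0.36 (SE) and an adjusted p of 0.45 in edgeR's quasi-likelihood test. *Itga5*, the fibronectin receptor subunit, had a log2 fold change of -0.94, *Itgav*, which binds vitronectin and other RGD ligands with several beta partners, -0.62, *Itga8*, a nephronectin receptor subunit, -0.52, and *Itga4*, a leukocyte receptor subunit for VCAM1 and fibronectin, -0.25. None of these 4 had an unadjusted p under 0.05. In *Itga5* and *Itgav* control replicates 1 and 3 were above every test tumor and control replicate 2 was not.

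*Itgb1*, the shared beta subunit of most laminin and collagen receptors, was the most abundant member per length, at 130.3 FPKM on average. It was measured at 753.5, 443 and 736 CPM in the control tumors and 452.5, 430.4 and 508 CPM in the test tumors. Control replicates 1 and 3 were the highest tumors, and control replicate 2 lay within the narrow test range. The means were 644 ± 174 and 464 ± 39.8 CPM (SD, n = 3 each), with a log2 fold change of -0.47 ± 0.30 (SE) and an adjusted p of 0.71 in edgeR's quasi-likelihood test. *Itgb5*, a vitronectin receptor subunit, varied least, with a 1.27-fold range between the highest and the lowest of the 6 tumors and a log2 fold change of 0.10 ± 0.22 (SE).

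The other beta subunits had log2 fold changes between -0.29 and 0.32, none with an unadjusted p under 0.05. *Itgb3*, the platelet and osteoclast subunit, was measured at 18.2 to 44.7 CPM. *Itgb6*, an epithelial subunit that activates TGF-beta, reached 17.8 CPM in test replicate 3, the tumor with the highest *Itgb4*, and was between 4.64 and 9.84 CPM elsewhere. *Itgb8*, another TGF-beta activating subunit, was measured at 4.27 to 9.69 CPM. *Itgb7*, the subunit of gut-homing lymphocytes, was at 1.06 to 1.97 CPM, so that few of its transcripts were sampled.

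Genes that work with the members were taken from a separate list of 63 genes, of which 59 were tested. Of these, 38 (64.4%) had a fitted change below 0 and 21 (35.6%) above, beside 48.5% and 51.5% of all genes, with a median log2 fold change of -0.30. At an unadjusted p under 0.05, 11 (18.6%) were lower and 1 (1.69%) was higher in the test tumors, beside 5.26% and 3.15% of all genes, and 0 passed an adjusted p of 0.05 in edgeR. Among the 22 tested basement membrane and hemidesmosome genes, 15 were below 0, 6 of them with an unadjusted p under 0.05. *Col4a1*, which encodes the main chain of type IV collagen, was measured at 3386, 290.2 and 2759 CPM in the control tumors and at 335, 409 and 462 CPM in the test tumors. As for *Itga1*, control replicate 2 was below every test tumor while the other controls were far above them. The log2 fold change of *Col4a1* was -2.42 ± 0.78 (SE), and that of *Col4a2*, its partner, was -2.42, each with an adjusted p of 0.47 in edgeR's quasi-likelihood test. The other 4 were *Col4a5*, *Smoc1*, *Fbln1* and *Fbln2*, with log2 fold changes from -2.06 to -1.15.

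*Fn1*, which encodes fibronectin, had a log2 fold change of -2.07, and the talins *Tln1* and *Tln2*, which activate integrins from inside the cell, had -1.20 and -1.23, all with an unadjusted p under 0.05. Of the 18 adaptor genes, 8 were above and 10 below 0. The laminin receptors other than integrins were split as well, with 3 above and 4 below, and *Sdc1*, a syndecan, was the 1 gene of the list with an unadjusted p under 0.05 in the higher direction, at a log2 fold change of 0.70. Of the 6 tested leukocyte and platelet integrins, 5 were below 0, including *Itgam* at -0.76, the single one of these with an unadjusted p under 0.05.

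Markers of the cell types that a breast tumor can hold were measured beside the members. The 6 luminal markers, including *Krt8* and *Krt18*, summed to 1872 to 4081 CPM in the control tumors and to 5322 to 5370 CPM in the test tumors, all 6 had a fitted change above 0, and 3 had an unadjusted p under 0.05. Control replicate 2 had the highest luminal sum of the control tumors. The 8 basal and myoepithelial markers summed to 473.5 to 3124 CPM in the control and 525 to 1252 CPM in the test tumors, with 7 of 8 below 0. Among these, *Trp63* alone had an unadjusted p under 0.05, at a log2 fold change of -3.15, with 371 CPM in control replicate 1 and between 6.47 and 58.5 CPM in the other tumors.

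The 6 fibroblast markers summed to 967 to 2948 CPM and 1161 to 4971 CPM, the 5 pericyte markers to 134 to 223 and 107 to 199 CPM, the 4 Schwann cell markers to 460.4 to 619 and 313 to 597 CPM, and the 6 leukocyte markers to 117 to 245 and 91.9 to 159 CPM, in the control and the test tumors. The groups overlapped in each of these sums. The 6 skeletal muscle markers summed to 5.11 to 179 CPM in the control and 99.5 to 904 CPM in the test tumors, and all 6 had a fitted change above 0, with a median log2 fold change of 2.58 and 0 at an unadjusted p under 0.05. The 5 adipocyte markers summed to 12.2 to 24.7 CPM in the control and 14.6 to 238 CPM in the test tumors. The 2 adipocyte markers that could be tested, *Adipoq* and *Fabp4*, both had an unadjusted p under 0.05, at log2 fold changes of 4.31 and 2.03. No marker was at 0 in every tumor. The part that the makeup of the tumors had in the values of the members was not tested.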

How the data were processed

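Total RNA of 6 breast tumors was sequenced on an Illumina instrument. Per the labels and the study's methods, the authors aligned reads to mm10, and the submitters' processing notes name Bowtie, BWA and RSEM. The deposited values were expected counts per gene and FPKM, the latter scaled by the authors to transcript length and library size. Here the expected counts, of which 79.0% to 80.1% were whole, were rounded and tested with edgeR 4.0.16 (R 4.3.3; TMM factors, filterByExpr, quasi-likelihood test of test against control, Benjamini-Hochberg over 13706 genes). The common biological coefficient of variation was 0.434. Genes were matched by NCBI identifier, 18400 of 18460. Shares and ratios of FPKM were tested by two-sided exact permutation. DESeq2 1.42.0 and limma 3.58.1 (on log2 of FPKM plus 1 or plus 0.1), other filters, a replicate block and leaving out each tumor were the alternatives. All 34 members were named, and values per tumor were given by a fixed rule: members whose groups did not overlap, those at an unadjusted p under 0.05, the most abundant laminin chains, and the main receptors, nidogens and proteoglycans. *Lama2*, *Lama3*, *Itga1*, *Itgb5* and others given by range lie outside it or were picked after their values were seen. The members and lists were chosen with earlier results of these data known. Depth, at 8373390 to 9449565 expected counts, limits what can be said of members below a few CPM. The study's methods name several packages for differential expression without saying which was used, so the test here was chosen to fit counts.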

Additional observations from a re-analysis of the deposited data

How the results depend on the processing

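Of 423 log2 fold changes of members under the alternatives, 407 kept their direction and 16 did not, of which 2 were from alternatives that kept every tumor: *Lama2*, at 0.74 in the main analysis, was at -0.0069 by limma on log2(FPKM + 0.1) and at -0.074 with a replicate block. In all, 21 of the 33 tested members kept their direction throughout, 17 lower and 4 higher. When 1 tumor was left out, the log2 fold change ranged from -1.48 to 0.51 for *Lama1*, -1.02 to 1.24 for *Lama2*, -0.47 to 1.91 for *Lama3*, -0.64 to 0.29 for *Lama5*, -0.93 to 0.015 for *Lamb2*, -0.49 to 0.22 for *Nid1*, -0.86 to 0.19 for *Itga7*, -1.24 to 0.0497 for *Itga2*, -0.45 to 0.18 for *Itga4*, -0.91 to 0.26 for *Itga8*, -0.39 to 0.13 for *Itgb3* and -0.54 to 0.65 for *Itgb6*.

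The number of members at an adjusted p of 0.05 was 0 in edgeR and 2 in DESeq2, and 0 to 2 when 1 tumor was left out, with 2 only without control replicate 2. At an unadjusted p under 0.05 the number, 9 in the main analysis, ranged from 4 without control replicate 1 to 18 without control replicate 2, where 4.65% and 14.3% of all genes were called and 8.41% in the main analysis. The number whose groups did not overlap was 6 with every tumor and 19 without control replicate 2. Of these 19, 16 (48.5% of tested members) had both remaining controls above every test tumor, beside 18.8% of all genes. The other 3 (9.09%) had both below, beside 16.2% of all genes. With any other tumor left out the number was between 6 and 10, and the share of all genes was not computed there. Groups of 3 and 2 tumors overlap less often by construction. For the 59 tested genes that work with the members, the number at an unadjusted p under 0.05 was 12, and 5 to 17 when 1 tumor was left out, lowest without control replicate 3 and 7 without control replicate 1. Over all genes, 0 passed an adjusted p of 0.05 in edgeR, 343 in DESeq2, 182 in edgeR without control replicate 2, and 1 by limma on log2(FPKM + 1). The cause of these differences was not tested.

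The labels do not say whether the replicate numbers pair the tumors. Deviations from the group means of same-numbered tumors correlated at -0.031, 0.105 and -0.139 for numbers 1, 2 and 3. Not every tumor correlated best with its own number. With 3 tumors per group such correlations cannot settle whether the numbers pair the mice. With a replicate block, 8 members (24.2%, beside 7.7% of all genes) had an unadjusted p under 0.05 and 0 an adjusted p of 0.05, at a median log2 fold change of -0.44.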
